A study of Mus musculus with 6 samples.

Results

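Collagen and laminin transcripts were followed in liver on 6 Agilent mouse arrays in 2 colours. The members were the genes whose symbol names a collagen chain or a laminin alpha, beta or gamma chain, found through the RefSeq accession that each probe carries. The members described here numbered 52 of 19752 gene symbols matched on the arrays, with 73 probes, and each was represented by its brightest probe. The members fell into 16 basement membrane genes (type IV collagens and laminins), 11 fibrillar collagens and 25 other collagens. Col6a3 and Col12a1 had no matched probe and were not analysed here. Symbols chose the members, and no measured value did.

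The mice were of 2 kinds, both of the C57BL/6J strain, aged 26 to 28 weeks and untreated. In Fra-1hep mice the hepatocytes overexpress Fra-1 (gene Fosl1), a Fos-family component of the AP-1 transcription factor, and the comparison was with wild type. The promoter that drives the transgene and the sex of the mice are not given in the sources used here. On 5 arrays, the liver RNA of a single Fra-1hep mouse carried Cy5 and was hybridised with pooled liver RNA of 5 wild-type mice on chow, which carried Cy3. A sixth array carried the dyes the other way round, with pooled Fra-1hep RNA labelled with Cy3 and the wild-type RNA with Cy5. The mice in the Fra-1hep pool are not stated, and the design text speaks of 6 single mice where the sample labels give 5. Wild type was therefore 1 pooled sample throughout, without a spread of its own.

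Collagens are trimeric proteins. Fibrillar collagens, chiefly types I, III and V, form the interstitial fibres that stellate cells and portal fibroblasts lay down in liver scarring. Type IV collagen and the laminins, which are trimers of an alpha, a beta and a gamma chain, each form a sheet-like network, and together these make the basement membrane under epithelia and around vessels and muscle cells. The hepatic sinusoids have no continuous basement membrane, whereas bile ducts, portal vessels and nerves do. Type VI collagen forms beaded filaments between basement membranes and the surrounding fibres.

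Each value below is a log2 ratio of Fra-1hep over wild type, after background correction and loess normalisation within the array, with the sign of the dye-swapped array turned. The overexpressed gene does not check the labels, because its single Fosl1 probe was detected above background on 0 of 6 arrays for Fra-1hep and 0 for wild type. Probes well above background made up 48.5 to 58.9% per array for Fra-1hep RNA and 45.0 to 50.7% for wild-type RNA. The arrays of mice 2 and 3 differed by no more than replicate spots of a probe do (0.920 times the expected spread, against 1.58 to 2.11 times for the 9 other pairs). They were averaged and counted as 1 sample, leaving n = 4 Fra-1hep samples. A gene counted as changed at an adjusted p under 0.05 in limma, with Benjamini-Hochberg adjustment over all 22833 genes tested. The P values measure the spread between the Fra-1hep samples alone, and the 6 arrays limit their precision.

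Of the 52 members, 36 were bright enough to be tested. The other 16 were well above background on at most 1 array in the Fra-1hep channel and at most 1 in the wild-type channel. They were the fibrillar Col2a1, Col5a2 and Col11a1, the type IV chain Col4a3, the type VI chains Col6a4, Col6a5 and Col6a6, the fibril-associated Col9a3, Col19a1 and Col22a1, and Col8a1, Col10a1, Col15a1, Col17a1, Col26a1 and Col28a1. The 10 laminin chains described here were all tested. A further 4 members, Col8a2, Col9a1, Col11a2 and Col24a1, passed through the Fra-1hep channel alone, and 0 of these 4 passed the test. Among the 36 tested members 7 rose and 1 fell, next to 12.5% of all genes tested that changed in either direction (5.97% higher and 6.51% lower). Without the dye-swapped array 10 members were called higher and 3 lower, the added ones being Col23a1, Col24a1, Col27a1, Col3a1 and Lamb1. All remaining arrays carry Fra-1hep in Cy5, so in that setting an effect of dye cannot be told apart from genotype.

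The changed members were mostly basement membrane chains and the chains of type VI collagen. In the basement membrane class, 5 of 15 tested genes rose (Lamc3, Col4a2, Col4a1, Lama2 and Lamc1) and 1 fell (Lama1). In the other collagens, 2 of 13 tested genes rose, both of type VI (Col6a1 and Col6a2). Among the fibrillar collagens 0 of 8 tested genes changed in limma, and 2 of the 8 had an unadjusted p under 0.05, as did 6126 of the 22833 genes tested. With the signals used here the rises were modest, from 1.22-fold for Lamc1 to 1.91-fold for Lamc3. Their sizes depend on the background correction. On Agilent's processed signals the log2 ratio of Lamc3 was 1.46, against 0.93 here, and that of Lamc1 0.37, against 0.29.

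**Figure D1:**
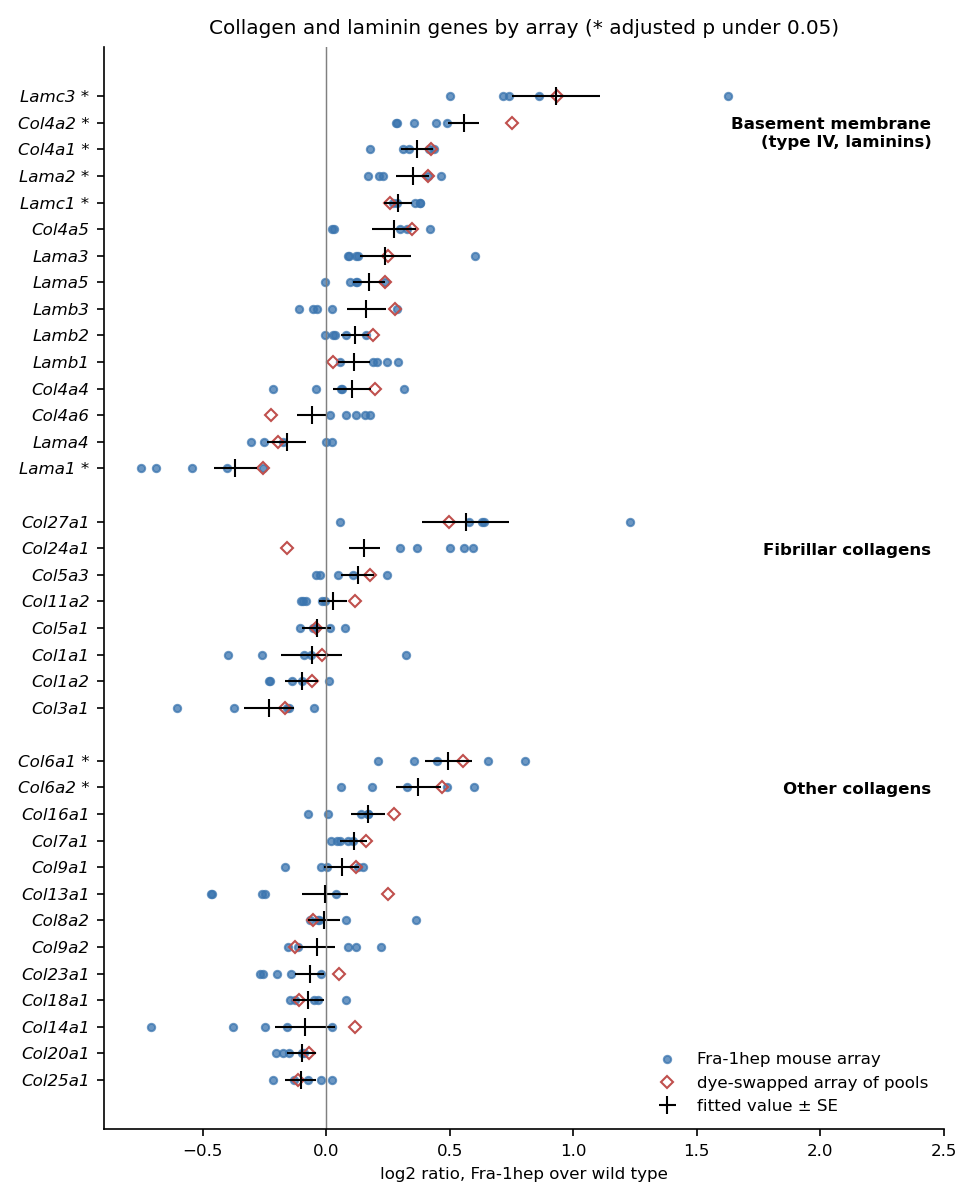
Log2 ratios (Fra-1hep over wild type) of the 36 tested collagen and laminin genes, ordered by size within the 3 classes. Filled circles are the 5 Fra-1hep mice, open diamonds the turned dye-swapped array of pools, and vertical ticks with bars the fitted value ± SE. The 7 starred genes that rose lie right of 0 on all 6 arrays, and starred Lama1 lies left of 0 on all 6.

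Type IV collagen is the structural network of every basement membrane, and its most widespread form is built from the chains of Col4a1 and Col4a2. Col4a2 had log2 ratios of 0.29, 0.49, 0.35, 0.44 and 0.28 in Fra-1hep mice 1 to 5 and 0.75 on the dye-swapped array. It was above wild type on every array, and highest in the pool. The fitted ratio was 0.56 (SE 0.06, 1.47-fold, n = 4, limma adjusted p = 0.00185). Col4a1 gave 0.18, 0.42, 0.44, 0.31 and 0.33 in the same mice and 0.42 in the pool, with a fitted ratio of 0.37 (SE 0.07, 1.29-fold, adjusted p = 0.0116). Its ratios were also positive on every array, with mouse 1 lowest. Both calls held under all 19 other settings tried, with adjusted p of at most 0.0462 for Col4a1 and 0.0195 for Col4a2. Without the dye-swapped array the ratio of Col4a2 was 0.36.

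The other type IV chains, which form the more restricted networks of kidney glomerulus, lung and smooth muscle, did not pass the test. Col4a5 had log2 ratios of 0.02, 0.33, 0.30, 0.42 and 0.03 in the mice and 0.35 in the pool, so that mice 1 and 5 lay near wild type (fitted 0.27, adjusted p = 0.0934). With Agilent's processed signals its ratio was 0.85 with an adjusted p of 0.0495, in a range from 0.0495 to 0.129 over all settings. Col4a4 had a fitted ratio of 0.10 and Col4a6 one of -0.06. For both of these a second probe gave the opposite sign (-0.11 for Col4a4 and 0.10 for Col4a6), and none of the 4 values passed the test.

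Col4a1 and Col4a2 lie head to head on chromosome 8, and their annotated transcript starts are 21 bases apart in the RefSeq gene models. By these starts both transcripts overlap at their beginnings, with no gap between them. The 300-base promoter windows of the pair (250 bases before to 50 after the start) are shown because the chains of both genes rose. The windows share 78 bases, which are in capitals and read on opposite strands. Each shared base lies within the 50 bases after the annotated start of Col4a1 or of Col4a2. The capitals therefore mark no stretch upstream of both genes. Both sequences are from RefSeq on build GRCm38.p6, at chr8:11312777-11313076 on the minus strand for Col4a1 and chr8:11312555-11312854 on the plus strand for Col4a2.
Col4a1: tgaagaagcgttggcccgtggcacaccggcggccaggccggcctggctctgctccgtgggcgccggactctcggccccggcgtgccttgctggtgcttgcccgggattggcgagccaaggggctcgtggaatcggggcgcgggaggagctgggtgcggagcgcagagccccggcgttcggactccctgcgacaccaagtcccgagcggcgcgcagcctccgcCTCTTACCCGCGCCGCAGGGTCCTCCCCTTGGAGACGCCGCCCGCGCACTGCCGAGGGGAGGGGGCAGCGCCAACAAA
Col4a2: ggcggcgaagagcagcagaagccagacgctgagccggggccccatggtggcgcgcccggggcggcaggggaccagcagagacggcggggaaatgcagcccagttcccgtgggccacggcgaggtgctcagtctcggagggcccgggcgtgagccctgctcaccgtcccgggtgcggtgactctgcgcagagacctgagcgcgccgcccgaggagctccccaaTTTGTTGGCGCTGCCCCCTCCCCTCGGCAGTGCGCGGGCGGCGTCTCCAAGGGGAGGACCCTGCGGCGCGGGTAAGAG

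Laminin gamma chains complete the laminin trimer, and Lamc1 and Lamc3 rose. Lamc3, the gamma chain described in nerve, retina and brain basement membranes, had the largest ratio of any tested member, with log2 values of 0.50, 0.74, 0.72, 1.63 and 0.86 in the mice and 0.93 in the pool. Mouse 4 stood above the others, and every array was above wild type (fitted 0.93, SE 0.18, 1.91-fold, adjusted p = 0.0153). Lamc1, the gamma chain of most laminins, varied least between samples among the changed members, with 0.29, 0.38, 0.38, 0.36 and 0.27 in the mice and 0.26 in the pool (fitted 0.29, SE 0.06, 1.22-fold, adjusted p = 0.0173).

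The calls for Lamc1 and Lamc3 depended on the signal used. With Agilent's processed signals the ratios were larger, at 1.46 for Lamc3 and 0.37 for Lamc1, while the adjusted p values were 0.0509 and 0.0515. Over all settings the adjusted p ran from 0.00129 to 0.0610 for Lamc3 and from 0.00256 to 0.0525 for Lamc1, and the direction stayed the same.

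The alpha chains, which carry the receptor-binding end of a laminin, moved in different directions. Lama2, best known from muscle and peripheral nerve, had log2 ratios of 0.23, 0.22, 0.46, 0.17 and 0.41 in the mice and 0.41 in the pool (fitted 0.35, SE 0.07, 1.27-fold, adjusted p = 0.0148). All 6 arrays were above wild type, and a second Lama2 probe gave a fitted ratio of 0.40 (adjusted p = 0.00738, over probes). The call held under all 19 other settings, with adjusted p of at most 0.0470.

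Lama1, the alpha chain of the first embryonic basement membranes, was the only tested member that fell. It had log2 ratios of -0.40, -0.75, -0.69, -0.54 and -0.26 in the mice and -0.26 in the pool, below wild type on every array. The fitted ratio was -0.37 (SE 0.09, n = 4, limma adjusted p = 0.0341). Without mouse 1 the adjusted p was 0.0506 and without mouse 4 it was 0.0650. It lay above the threshold also with Agilent's processed signals (0.101), with median centring (0.0697) and with a normexp offset of 16 (0.0504). The call remained under 12 of 19 settings, with adjusted p from 0.00359 to 0.101, and the ratio was negative in all of them.

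The remaining alpha chains did not pass the test. Lama3, an alpha chain of epithelial basement membranes, had log2 ratios of 0.60 in mouse 1, 0.09 to 0.13 in the other 4 mice and 0.25 in the pool (fitted 0.24, adjusted p = 0.186). A second Lama3 probe gave 0.16, -0.28, -0.14, -0.09 and 0.18 in mice 1 to 5 and 0.39 in the pool (fitted 0.20, adjusted p = 0.187, over probes). Lama5, a main alpha chain of adult epithelial and vascular basement membranes, ranged from -0.01 to 0.24 in the mice with 0.24 in the pool (fitted 0.17, adjusted p = 0.134). Lama4, the alpha chain of vessel walls, ranged from -0.31 to 0.02 in the mice with -0.20 in the pool (fitted -0.16, adjusted p = 0.242).

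None of the 3 beta chains passed the test. Lamb1, the beta chain of the most widespread laminins, ranged from 0.06 to 0.29 in the mice with 0.03 in the pool (fitted 0.11, adjusted p = 0.323, and 0.0415 without the dye-swapped array, in a range from 0.0415 to 0.457). Lamb2, its counterpart at vessels and synapses, ranged from -0.0037 to 0.16 in the mice with 0.19 in the pool (fitted 0.12, adjusted p = 0.252). Lamb3, which joins Lama3 in an epithelial laminin, was 0.29 in mouse 1 and -0.11 to 0.02 in the other mice, with 0.28 in the pool (fitted 0.16, adjusted p = 0.242).

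The fibrillar collagens of liver scars did not pass the test. Col1a1, the major chain of type I collagen, had log2 ratios of -0.26, -0.06, -0.09, -0.40 and 0.32 in the mice and -0.02 in the pool. Mouse 5 lay above wild type and the other 5 arrays below it (fitted -0.06, SE 0.12, adjusted p = 0.809). Col1a2, the second chain of type I collagen, ranged from -0.23 to 0.01 in the mice with -0.06 in the pool (fitted -0.10, SE 0.07, adjusted p = 0.399). Col3a1, the chain of type III collagen, had -0.37, -0.16, -0.15, -0.60 and -0.05 in the mice and -0.17 in the pool, negative on all 6 arrays (fitted -0.23, SE 0.10, adjusted p = 0.197). Without the dye-swapped array Col3a1 passed the test (-0.30, adjusted p = 0.0477), as it did without the dye constant, and the adjusted p ran from 0.0428 to 0.509 over all settings.

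Type V collagen sets the diameter of type I fibres. Col5a1 ranged from -0.11 to 0.08 in the mice with -0.04 in the pool (fitted -0.04, SE 0.06, adjusted p = 0.728), and Col5a3 had a fitted ratio of 0.13 (adjusted p = 0.289). Col5a3 passed the test only with median centring (0.27, adjusted p = 0.0463, in a range from 0.0463 to 0.393).

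Col27a1, a fibrillar collagen of cartilage, stood apart from the others in its class. Its log2 ratios were 1.23, 0.58, 0.64, 0.05 and 0.63 in the mice and 0.50 in the pool. All arrays were above wild type, mouse 1 was highest and mouse 4 was at the level of the wild-type pool (fitted 0.56, SE 0.18, 1.48-fold, adjusted p = 0.0820). Its ratio was as large as that of Col4a2, and its SE was larger (0.18 against 0.06). Without mouse 4 the adjusted p was 0.0208 and without the dye-swapped array 0.0228, and Col27a1 passed the test under 6 of 19 settings, with adjusted p from 0.0115 to 0.198. Col24a1 was 0.30 to 0.59 in the mice but -0.16 on the dye-swapped array, and its probe was above background on 5 of 6 arrays in Fra-1hep and 1 in wild type (fitted 0.15, adjusted p = 0.159). Without the dye-swapped array, where dye and genotype cannot be told apart, its ratio was 0.47 with an adjusted p of 0.00112. The adjusted p ran from 0.00112 to 0.276 over all settings. Col11a2 had a fitted ratio of 0.03.

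Type VI collagen rose in both tested chains. Col6a1 had log2 ratios of 0.36, 0.66, 0.80, 0.21 and 0.45 in the mice and 0.55 in the pool (fitted 0.49, SE 0.09, 1.41-fold, adjusted p = 0.0148). Col6a2 had 0.06, 0.60, 0.49, 0.19 and 0.33 in the mice and 0.47 in the pool (fitted 0.37, SE 0.09, 1.29-fold, adjusted p = 0.0358). For both chains mice 2 and 3 were the highest mice and all 6 arrays were above wild type, although mouse 1 was close to wild type for Col6a2. Without mouse 4 the adjusted p of Col6a2 was 0.0520 and without mouse 5 it was 0.0642. On Agilent's processed signals it was 0.104 for Col6a2 and 0.0772 for Col6a1, at ratios of 0.54 and 0.57. The adjusted p ran from 0.0168 to 0.109 for Col6a2 and from 0.00263 to 0.0794 for Col6a1 over all settings.

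The promoter window of Col6a1 is shown because it was the only one among the 39 members with a RefSeq promoter that held the AP-1 type motif TGANTCA. This motif reads the same on both strands. It was found in 7.81% of all 32851 windows of that length. The match, in capitals, begins at position -90 from the transcript start, in the window chr10:76725995-76726294 on the minus strand of GRCm38.p6. A match of letters is a description and says nothing of binding.
Col6a1: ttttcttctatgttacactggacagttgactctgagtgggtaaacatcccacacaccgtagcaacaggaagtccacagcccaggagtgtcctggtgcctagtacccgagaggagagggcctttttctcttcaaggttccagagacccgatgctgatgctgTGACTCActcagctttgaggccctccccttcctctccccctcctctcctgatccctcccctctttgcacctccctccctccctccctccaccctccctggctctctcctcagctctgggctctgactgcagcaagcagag

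Of the 8 changed members 5 had a RefSeq promoter in the table (Col4a1, Col4a2, Col6a1, Col6a2 and Lama2). Other short motifs were searched on both strands of the same windows, and none of these contains TGANTCA or lies within it. CCAAT was found for 14 of 39 members and in 37.4% of all windows, TATAAA for 5 of 39 and in 13.6%, and the GC box core GGGCGG for 25 of 39 and in 35.7%. In the RefSeq gene order Col4a1 and Col4a2 were direct neighbours, as were Col6a1 and Col6a2, and in both pairs each gene rose. The neighbours Col4a6 and Col4a5 were both tested, had ratios of -0.06 and 0.27, and neither was called. The remaining neighbouring pairs of members each held a gene that was not tested.

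The other collagens did not pass the test. Among those tied to fibre surfaces, Col14a1, which binds decorin and type I fibres, ranged from -0.71 in mouse 4 to 0.02 in mouse 5 with 0.12 in the pool (fitted -0.09, SE 0.12, adjusted p = 0.711). Col16a1 had a fitted ratio of 0.17, Col9a1 of 0.06, Col9a2 of -0.04 and Col20a1 of -0.10. Col18a1, whose end fragment is endostatin, is also a basement membrane collagen and is abundant in liver. It was counted here with the other collagens, because the basement membrane class held only type IV collagens and laminins. Col18a1 ranged from -0.15 to 0.08 in the mice with -0.11 in the pool (fitted -0.07, SE 0.06, adjusted p = 0.518), and a second probe gave -0.13. The anchoring fibril collagen Col7a1 was at 0.11, the short-chain Col8a2 at -0.01, and the transmembrane collagens Col13a1, Col23a1 and Col25a1 at -0.01, -0.07 and -0.10. Col23a1 passed the test without the dye-swapped array (-0.19, adjusted p = 0.0343, in a range from 0.0343 to 0.928).

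The classes also differed in their medians. The median log2 ratio was 0.17 over the 15 tested basement membrane genes, with 12 of 15 above 0, against -0.01 over the 8 fibrillar genes, -0.01 over the 13 other collagens and 0.01 over all genes tested. Per array the basement membrane median was 0.09 to 0.19 in the mice and 0.25 in the pool, and the fibrillar median -0.05 to 0.10 in the mice and -0.03 in the pool. Basement membrane genes stood above fibrillar genes by 0.21, 0.24, 0.12 and 0.21 in mice 1 to 4 and by 0.28 in the pool, whereas in mouse 5 the difference was -0.02. Type IV collagens had a median of 0.27 over 5 genes, laminins 0.17 over 10 and type VI chains 0.43 over 2. Over all settings the basement membrane median ran from 0.16 to 0.28, while the fibrillar median changed sign, from -0.05 without the dye-swapped array to 0.04 with median centring.

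**Figure D2:**
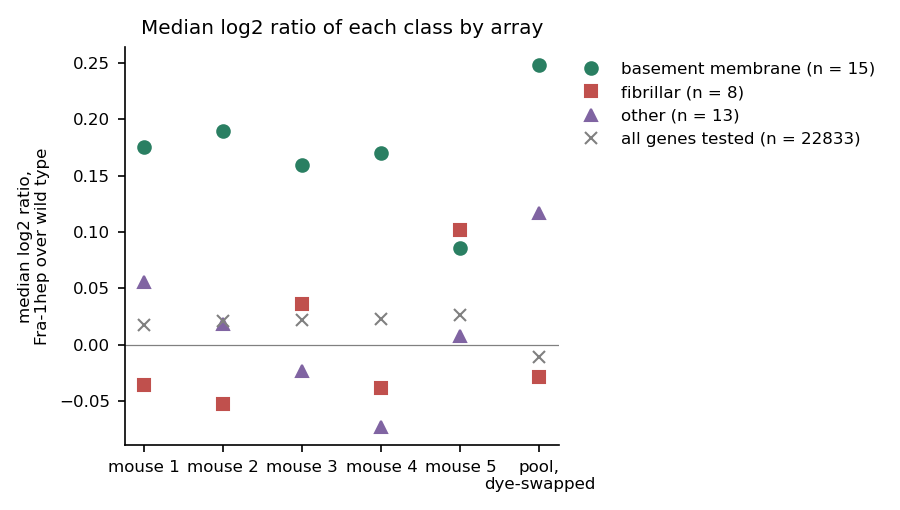
Median log2 ratio (Fra-1hep over wild type) of each class on each array, with the number of tested genes in the legend. Circles of the basement membrane class lie above the other symbols on every array but that of mouse 5, where the fibrillar median (0.10) is slightly above it (0.09).

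The 7 members that rose had positive means and Lama1 a negative mean on each of the 3 slides. This follows from each of these genes having the same sign on every array, and is no separate check. Slide 1 held mice 1 and 2, slide 2 held mice 3 and 4 and the dye-swapped array, and slide 3 held mouse 5. With slide as a random block and 5 separate mouse arrays, all 8 calls remained and Col27a1 was added. The estimated correlation within slides was -0.016, so this fit was nearly that of 5 separate mouse arrays without a block. It also counts mice 2 and 3 as separate samples.

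Among proteins that bind basement membranes, Smoc2 had a larger ratio than any tested chain. Of 9 tested partners 3 rose and 0 fell, with a median of 0.21 (5 and 1 without the dye-swapped array). Of all genes tested 5.97% were higher and 6.51% lower. Smoc2, a calcium-binding protein of basement membranes, had log2 ratios of 1.92, 2.19, 2.13, 1.71 and 1.74 in the mice and 1.92 in the pool (3.73-fold, adjusted p = 5.01e-05). Its range in the 5 mice lay far above 0. Fbln1, a fibulin that binds laminin and nidogen, rose with a ratio of 0.76 (adjusted p = 0.00540), which ran from 0.55 to 1.68 over all settings. Agrn, a laminin-binding heparan sulfate proteoglycan, rose with 0.39 (adjusted p = 0.00579), a call lost with the mean of all its probes (0.19, adjusted p = 0.0633, the highest over all settings). The nidogen Nid1, which links laminin to type IV collagen and was named after its values were seen, was 0.86 and 0.96 in mice 2 and 3 and 0.11 to 0.41 in the others (fitted 0.40, adjusted p = 0.104). The remaining tested partners were not called either. Their fitted ratios were -0.21 for Hspg2, -0.16 for Pxdn, -0.15 for Nid2, 0.01 for Smoc1 and 0.21 for Fbln2.

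Among the receptors for collagens and laminins, 4 of 13 tested genes rose and 0 fell, with a median of 0.11 (2 and 2 without the dye-swapped array). Of all genes tested 12.5% changed. Itga6, the integrin alpha chain of the main laminin receptors, had 1.51, 1.92, 1.75, 1.51 and 1.43 in the mice and 1.83 in the pool (3.24-fold, adjusted p = 5.35e-05). Ddr1, an epithelial receptor kinase for collagen, had 2.02, 1.93, 1.96, 1.69 and 1.60 in the mice and 1.99 in the pool (adjusted p = 4.90e-05). Both were far above wild type on every array. The Ddr1 probe was above background on 6 of 6 arrays in Fra-1hep and 2 of 6 in wild type, so it passed the filter through Fra-1hep alone, and its fitted ratio ran from 1.81 to 3.51 over all settings. Ddr2, the mesenchymal counterpart, was at 0.25 (adjusted p = 0.0249), and Itgb4, the beta chain that pairs with Itga6 in hemidesmosomes, at 0.22 (adjusted p = 0.0491). The Itgb4 call was lost when any 1 mouse was left out (adjusted p up to 0.0946), and without the dye-swapped array neither Itgb4 (0.217) nor Ddr2 (0.105) was called. With Agilent's processed signals Itga6 and Ddr1 kept their calls, and Ddr2 and Itgb4 did not.

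Of 26 tested enzymes and helpers that modify and assemble collagen, 3 rose and 1 fell, where 12.5% of all genes tested changed, with a median of 0.02 (3 and 4 without the dye-swapped array). P4ha2, a catalytic subunit of collagen prolyl hydroxylase, had -0.37, -0.76, -0.74, -0.76 and -0.48 in the mice and -1.02 in the pool, below wild type on all 6 arrays (fitted -0.81, SE 0.09, adjusted p = 0.00157). Pcolce, the enhancer of procollagen processing, rose with 0.48 (adjusted p = 0.0211). P3h4, a component of the collagen hydroxylation complex, rose with 0.29 (adjusted p = 0.0231), and Bmp1, the procollagen C-proteinase, with 0.27 (adjusted p = 0.0341). The Bmp1 call was lost without mouse 1 (adjusted p = 0.0556), mouse 4 (0.0700), mouse 5 (0.0524) or the dye-swapped array (0.143). On Agilent's processed signals 0 of these genes rose and 1 fell. With the signals used here 12 of the 26 had an unadjusted p under 0.05, as did 6126 of the 22833 genes tested.

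Of 13 tested proteoglycans and glycoproteins of collagen fibrils, 3 rose and 1 fell, where 12.5% of all genes tested changed, with a median of 0.06. Tnxb, a tenascin that organises collagen fibrils, rose with 0.47 (adjusted p = 0.0116), and the small proteoglycans Lum and Ogn with 0.36 and 0.25 (adjusted p = 0.0454 and 0.0431). Sparc, a collagen-binding glycoprotein, fell by 0.39 on the log2 scale (adjusted p = 0.020), but was not called on Agilent's processed signals (0.0817) or with median centring (-0.23, adjusted p = 0.0925). The count of higher genes ran from 1 without mouse 5 to 5 without the dye-swapped array. Lum was not called without mouse 1 (adjusted p = 0.0751) or mouse 5 (0.0666). Ogn was not called without mouse 1 (0.0693), 3 (0.112), 4 (0.0847) or 5 (0.0633).

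Of 17 tested genes of fibrogenic signalling 8 were higher and 1 lower, where 12.5% of all genes tested changed, with a median of 0.16. The list held ligands and receptors of TGF-beta and platelet-derived growth factor, Smad genes, Ltbp1 and Ccn2. The count of higher genes was 6 on Agilent's processed signals and ran from 5 to 10 over all settings. Tgfbr2, the ligand-binding TGF-beta receptor, had 1.15, 1.25, 1.16, 1.11 and 0.87 in the mice and 1.36 in the pool (2.33-fold, adjusted p = 0.000156). The ligand Tgfb1, named after its values were seen as the 1 lower gene, went the other way on all 6 arrays, from -0.63 in mouse 1 to -0.25 in mouse 5 with -0.39 in the pool (fitted -0.42, adjusted p = 0.0132). Pdgfc, a platelet-derived growth factor, rose with 0.52 (adjusted p = 0.00310), its receptor chain Pdgfra with 0.51 (adjusted p = 0.00226), and Ccn2, a matricellular target of TGF-beta, with 0.47 (adjusted p = 0.0219). Ccn2 was not called on Agilent's processed signals (adjusted p = 0.0894, in a range from 0.00358 to 0.0907).

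Of 8 tested genes for collagen breakdown 2 rose and 0 fell, where 12.5% of all genes tested changed, with a median of 0.18. Mmp8, a neutrophil collagenase, rose with 0.73 (adjusted p = 0.0313), on a probe above background on 5 of 6 arrays in Fra-1hep and 1 in wild type, which passed the filter through Fra-1hep alone. The Mmp8 call was lost on Agilent's processed signals (3.21, adjusted p = 0.0589) and with the intensity trend and robust variance (0.73, adjusted p = 0.109). Timp2, an inhibitor of matrix metalloproteinases, rose with 0.32 (adjusted p = 0.0453), a call lost without mouse 1 (0.0708), 3 (0.0573) or 4 (0.0818). It was also lost with the mean of all probes (0.09, adjusted p = 0.458) and on Agilent's processed signals (0.104), and Timp2 was called under 10 of 19 settings.

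**Figure D3:**
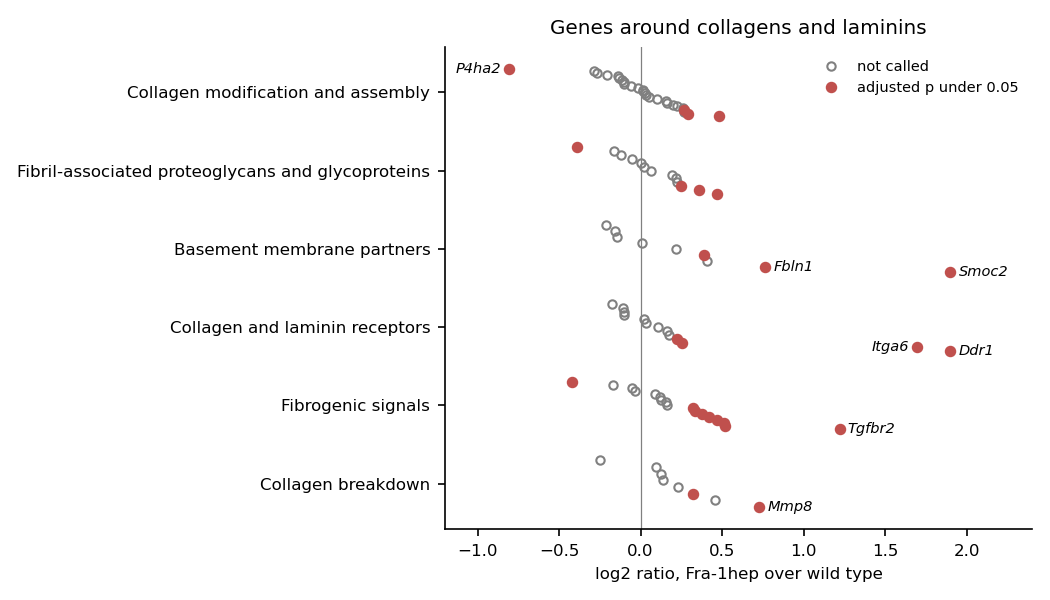
Log2 ratio (Fra-1hep over wild type) of each tested gene in the 6 lists around collagens and laminins. Filled points passed the test, open points did not, and genes past 0.7 in either direction that passed it are named. Smoc2, Ddr1, Itga6 and Tgfbr2 lie furthest to the right, and P4ha2 furthest to the left.

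Markers of the cells that make these chains were read on the same arrays. In bulk liver RNA, fewer cells of a type and less RNA per cell cannot be told apart. The marker counts below stand next to 12.5% of all genes tested that changed (5.97% higher and 6.51% lower). Of 11 tested stellate cell markers 1 was higher (Pdgfrb, 0.32) and 1 lower (Ngfr, -0.47), with a median of -0.05, and a summed signal of 21127 to 25308 in Fra-1hep and 23520 to 26540 in wild type. Of 9 tested portal fibroblast and myofibroblast markers, Acta2, Cnn1 and Tagln of the contractile apparatus fell, with log2 ratios of -0.84, -1.0 and -0.33. Entpd2 rose 6.74-fold and was the only gene of the list called higher, and the median of the list was -0.17. Summed signals over the 10 genes with a probe were 5451 to 7211 in Fra-1hep and 3620 to 3860 in wild type. Only 3 of the 9 tested genes had a positive ratio: Entpd2, Fbln2 (0.21) and Eln (0.02). The higher sum therefore does not describe most genes of the list. The Cnn1 probe was above background on 2 of 6 arrays in Fra-1hep and 6 of 6 in wild type, and its ratio ran from -3.35 to -0.90 over all settings.

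Of 14 tested endothelial genes 10 were lower and 1 higher (Vwf, 0.38), with a median of -0.44. Their summed signal was 14775 to 21630 in Fra-1hep and 26807 to 28474 in wild type. Clec4g, a lectin of sinusoidal endothelium, had the lowest ratio (-0.95). Macrophage markers were lower in 9 of 10 genes (median -0.59), with summed signals of 43594 to 71915 in Fra-1hep and 85200 to 98461 in wild type. Only 1 endothelial and 1 macrophage gene passed the test with Agilent's processed signals.

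Of 7 tested cholangiocyte markers 2 rose (Spp1, 1.04, and Epcam, 0.41) and 0 fell, with a median of 0.19 and summed signals of 1596 to 1965 in Fra-1hep and 1192 to 1326 in wild type. Of 3 tested mesothelial markers Wt1 rose (0.63), while Upk3b and Upk1b were never above background. Summed signals over the 5 genes with a probe were 526 to 618 in Fra-1hep and 472 to 508 in wild type. These low sums include Upk3b and Upk1b and the offset of every probe, so they say little of the mesothelium. Hepatocyte markers, which check the tissue, were bright on all arrays, with 2 of 7 lower (Alb, -0.65, and Apoa1, -0.34), a median of -0.07, and summed signals of 410209 to 530888 in Fra-1hep and 454653 to 599456 in wild type. Without the dye-swapped array 2 hepatocyte markers were higher and 1 lower, and Alb was not called (-0.21, adjusted p = 0.124). The part of any of these cell types in the collagen and laminin ratios was not tested.

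The 8 changed members differed in how firmly they held. Col4a1, Col4a2 and Lama2 were called under all 19 other settings. Col6a1 and Lamc1 were called under 16, Lamc3 under 15, Col6a2 under 14 and Lama1 under 12. The settings are not independent. Agilent's processed signals, the same signals recentred and the authors' deposited ratios rest on nearly the same values, so these tallies count them repeatedly.

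**Figure D4:**
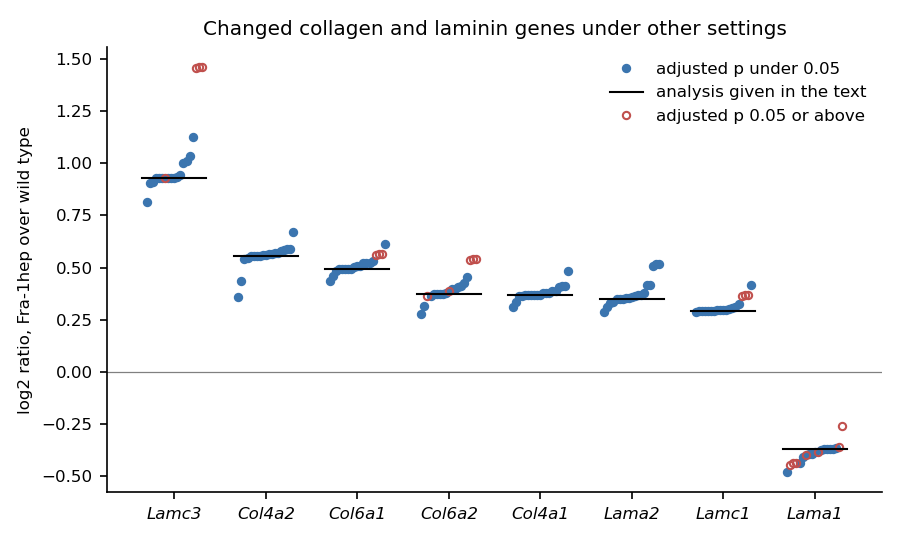
Log2 ratio (Fra-1hep over wild type) of the 8 changed collagen and laminin genes under 19 other settings, each a point. Horizontal lines are the values given in the text, filled points passed the test and open points did not. Every gene stayed on its side of 0, and Col4a2, Col4a1 and Lama2 have filled points only.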

How the data were processed

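Images were read by the authors with Agilent Feature Extraction, version 10.7.3.1 per the file headers. In the scanner files they deposited are median spot and background signals as intensity per channel, with no normalisation, processed signals corrected for background and dye, and their log10 ratio, per the file headers. Marks of 0 or 1 for detection, saturation and outliers stand beside them in the deposited files. The series table deposited by the authors gives log2 ratios of Fra-1hep over wild type for the same arrays, not centred (column medians -0.18 to 0.06).

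Median intensities were corrected with normexp (offset 50) and normalised by loess within arrays in limma 3.58.1 under R 4.3.3. Control and outlier spots (190 to 301 per array) had weight 0, and outlier spots were then left out. Saturated spots numbered 0. Replicate spots were averaged and the brightest probe stood for a gene. A gene was tested if well above background in Fra-1hep on 3 of 5 mouse arrays or in wild type on 3 of 6 arrays. Of 55681 probes, 26056 had 1 symbol through the RefSeq gene list of GRCm38.p6, used for names, neighbours and promoters. The probes were designed on another build, so no probe positions are given. The fit held genotype (1 for mice, -1 for the dye swap) and a dye constant, with 3 residual and 4.67 prior degrees of freedom and 2-sided p values. The dye-swapped array weighs as much as the mouse arrays together. The SE takes its variance to equal that of the mouse arrays, because a single swapped array gives no estimate of its own error. The script was tested on simulated data.

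The members, classes, lists and alternatives were chosen with earlier results of these data known. Some genes of the rule and lists are not reported here and enter no count of them, and the fit and its adjusted p values cover all genes. Named with values are all other members, changed or not, and up to 4 changed genes per pathway list with the largest ratios. Beyond these, Tgfb1 and the basement membrane partners that were not called were named after their values were seen. The lists were modification and assembly, fibril-associated proteins, basement membrane partners, receptors, fibrogenic signals and breakdown, plus markers of stellate cells, portal fibroblasts, endothelium, cholangiocytes, mesothelium, macrophages and hepatocytes. Alternatives changed background correction, centring, signal, filter, probe choice, variance model, dye terms, slide block and mice used.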

Additional observations from a re-analysis of the deposited data

Results flagged for a closer look

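Of the 36 tested members, 1 had a sample far from the others. The Lama3 ratio of mouse 1 was 0.60 on the log2 scale, while the other 3 counted samples (mice 2 and 3 averaged, mouse 4 and mouse 5) lay between 0.09 and 0.12. The gap made up 0.935 of the whole range, above Dixon's critical value for 4 samples. Chance gives such a gap in about 1 of 20 groups, so among 36 genes a single one is no more than chance gives. Lama3 did not pass the test (fitted 0.24, limma adjusted p = 0.186). On a second Lama3 probe mouse 1, at 0.16, was close to mouse 5, at 0.18.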

How the results depend on the processing

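The 8 changed members and 2850 changed genes were counted under 19 other settings, of which centring on the probes that pass the filter was chosen after seeing the data. With Agilent's processed signals 4 members and 1545 genes changed, with the authors' deposited log2 ratios 4 and 1544, and with processed signals centred on passing probes 4 and 1532. The members shared with the analysis given here were Col4a1, Col4a2 and Lama2 in each case, and Col4a5 was added. The deposited ratios differed from Agilent's processed ratios by a median of at most 4.33e-07 per array. The setting centred on passing probes only shifts those processed ratios. These settings therefore rest on nearly the same values and are no separate checks. Leaving out the dye-swapped array gave 13 members and 6097 genes, and leaving out the dye constant 11 members and 4788 genes. Both of these kept all 8 calls. Without the dye-swapped array an effect of dye cannot be told apart from genotype. The cause of these differences was not tested. Median centring gave 9 members, and 74.8% of the changed genes were then higher, against 47.9% in the analysis given here. Leaving out 1 mouse at a time gave 7 to 8 members and 2319 to 2718 genes. With the intensity trend and robust variance Lamc3 had an adjusted p of 0.0610. The direction of the 8 members was the same under all 19 settings. Signal over background limits the 16 members not tested and the 4 seen in the Fra-1hep channel alone. Each array sets Fra-1hep against wild-type RNA, and the ratios use that pairing. Single Fra-1hep mice could not be paired with single wild-type mice, because each was set against the same wild-type pool.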
